A study of Mus musculus with 4 samples.

Results

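The genes described here encode the nuclear subunits of the mitochondrial respiratory chain (complexes I to IV) and of the ATP synthase (complex V), measured in regenerating mouse liver. They were chosen by symbol alone. Every probe set was taken whose only symbol in the platform annotation begins with Nduf, Uqcr, Cox4 to Cox8 or Atp5, or is Sdha, Sdhb, Sdhc or Sdhd. This gave 179 of 45101 probe sets, for 90 of 18193 named genes. A further 10 probe sets that carry such a symbol together with others were left out. The genes fell into 34 of complex I, 4 of complex II, 8 of complex III, 11 of complex IV and 17 of complex V, plus 8 assembly factors of complex I (Ndufaf1 to Ndufaf8) and 8 isoforms known from other tissues. Ndufa4 was counted in complex IV, where the protein is now placed.

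All mice were of the athymic nude strain BALB/c nu/nu, without mature T cells of their own, and had been given 23 injections of the hepatotoxin carbon tetrachloride at 0.25 ml/kg and then 1000000 human bone marrow mesenchymal stem cells by way of the spleen. In the OGFRL1 group (n = 2 arrays) the human cells expressed OGFRL1, and in the EGFP group (n = 2 arrays) they expressed the green fluorescent protein EGFP. Part of the liver was removed on day 21, and regenerating liver was collected 8 days after surgery. Whether a different mouse stands behind each array is not stated in the labels. The p-values therefore cover only the variation among these 4 arrays, which may be technical. The ages and sex of the mice, and how many human cells the livers still held, are not given in the sources used here.

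Electrons from NADH enter the chain at complex I (NADH dehydrogenase) and those from succinate at complex II (succinate dehydrogenase). Complex III (the cytochrome bc1 complex) passes them to cytochrome c, and complex IV (cytochrome c oxidase) passes them to oxygen. Complexes I, III and IV pump protons across the inner mitochondrial membrane, and the ATP synthase uses the returning protons to make ATP. Hepatocytes are rich in mitochondria and depend on this pathway for the cost of urea, glucose and plasma protein synthesis. Some subunits of complex IV exist as isoforms that are used in muscle, testis or other tissues in place of the common form.

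Values are MAS5 signals, the brightness of a probe set on a linear scale after each array was scaled as a whole. The deposited signals had the same mean on every array, 100.0, after 2% of values were trimmed at each end, and their medians lay between 11.6 and 12.5. The OGFRL1 arrays correlated at 0.984 and the EGFP arrays at 0.972 across the genes tested, and arrays of different groups at 0.965 to 0.973. The ratio of the 3′ to the 5′ control probe set of Actb, a sign of RNA integrity, was 1.69 on both OGFRL1 arrays, and 1.57 and 1.94 on the EGFP arrays. For Gapdh it was 0.738 and 0.768 on the OGFRL1 arrays, and 0.787 and 0.734 on the EGFP arrays. Where a gene had several probe sets, the brightest on average stood for it, and genes with a mean signal of at least 11.6 (the median probe set) were tested. Differences are OGFRL1 minus EGFP on the log2(signal + 3.51) scale, with the standard error (SE) of the limma fit.

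Most genes of the respiratory chain and ATP synthase had lower signals in OGFRL1 livers than in EGFP livers, but none passed the test. Of the 85 genes tested, 67 were lower and 18 higher, with a median log2 difference of -0.17, beside 0.042 over all 11942 genes tested, of which 44.4% were lower. The number past a limma adjusted p of 0.05 was 0, where 0.511% of all genes passed (0.151% lower and 0.36% higher), and the lowest adjusted p among the 85 was 0.164. At an unadjusted p under 0.05 there were 17 lower genes (against 6.28% of all genes) and 0 higher genes, against 9.01% of all genes. Both OGFRL1 arrays lay below both EGFP arrays for 53 genes, where 20.5% of all genes did so, and above them for 7, where 27.0% of all genes did so. For the other 25 genes the groups overlapped. The median signal was 1966 for the members and 112 over all genes tested, so these shares compare them with mostly dimmer genes. At mean signals of 2000 to 4000 the median difference was -0.22 for members and -0.20 for other genes. At 4000 and over it was -0.30 and -0.40, and from 1000 to 2000 -0.16 and -0.062. The differences between the complexes described next were not tested. In bulk tissue, fewer cells of a type and less RNA per cell cannot be told apart.

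The same direction was seen on both OGFRL1 arrays. Relative to the mean of the EGFP arrays, the median over the 85 genes was -0.22 on OGFRL1 array 1 and -0.12 on OGFRL1 array 2. EGFP array 1 lay 0.013 above that mean and EGFP array 2 as far below it, which mirror each other because the reference is their own mean. By complex, the median of EGFP array 1 ran from -0.051 for complex I to 0.073 for complex III, so the 0.013 is not the spread of single genes. OGFRL1 array 1 was the lowest of the 4 arrays for 55 of the 85 genes, where this was so for 21.1% of all genes, and EGFP array 1 was the highest for 43, against 28.4% of all genes. The calls depended on EGFP array 2. Without it 12 members passed, where 7.17% of all genes did. Of these members 10 were lower, where 3.4% of all genes were called lower, and 2 higher, where 3.77% were called higher. Without any other array the number was 0.

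**Figure D1:**
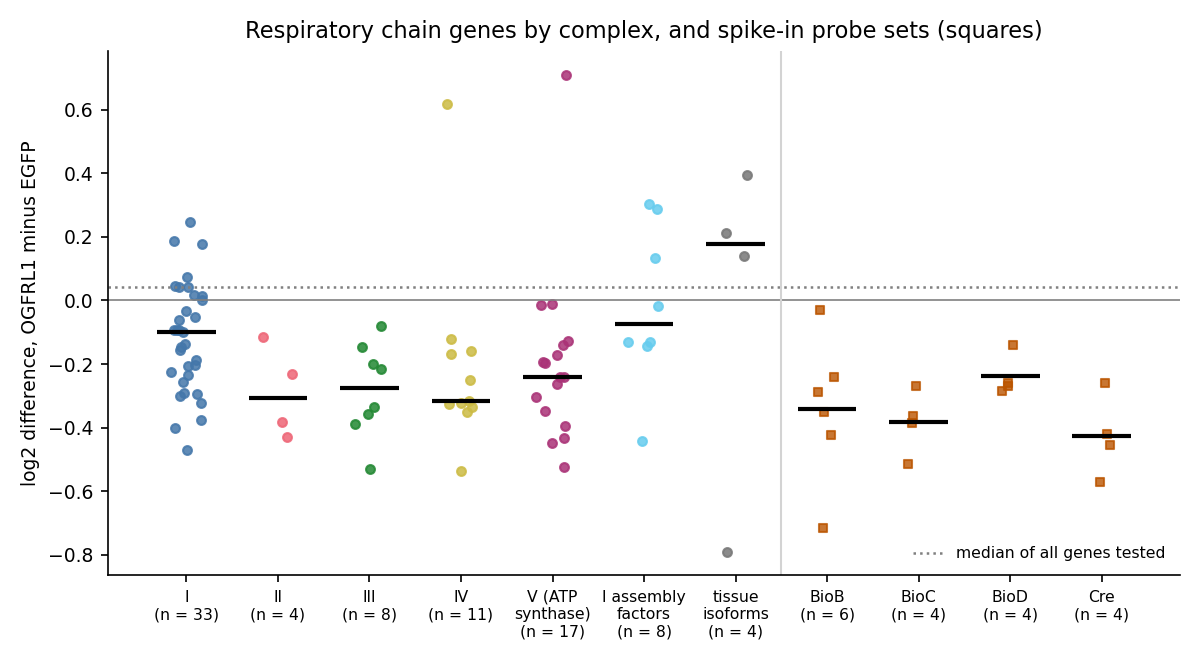
Each round point is the log2 difference (OGFRL1 minus EGFP, vertical axis) of 1 tested gene of complexes I to V, of the complex I assembly factors or of the tissue isoforms, and each square is 1 spike-in probe set. Black bars are medians of the genes and means of the spike-ins, and the dotted line is the median of all genes tested (0.042). Complexes II to V lie mostly between -0.1 and -0.5, as do the spike-ins. Above 0 are 10 genes of complex I, up to 0.25, and 1 each of complexes IV (0.62) and V (0.71).

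The members' shift was smaller than that of the spike-in controls. These are the AFFX probe sets for BioB, BioC, BioD and Cre, bacterial and phage transcripts that the standard protocol adds to each labelled sample in the same amounts. All 18 spike-in probe sets were lower in the OGFRL1 group, with a mean log2 difference of -0.35, a range of -0.72 to -0.031, and 15 with both OGFRL1 arrays below both EGFP arrays. A Cre probe set (r2-P1-cre-5) had signals of 5830.4 and 6515 on the OGFRL1 arrays and 9462 and 7556 on the EGFP arrays. A BioC probe set (r2-Ec-bioC-3) had 414 and 522 on the OGFRL1 arrays and 700.2 and 633 on the EGFP arrays. In both, OGFRL1 array 1 was the lowest and the groups did not overlap. The mean log2 difference was -0.34 for BioB (6 probe sets), -0.38 for BioC, -0.24 for BioD and -0.43 for Cre (4 each).

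Set against the spike-in mean, 68 of the 85 genes lay above it and 17 below, and the median of the 85 was 0.17 higher. By complex, the median lay 0.25 above the spike-in mean for complex I, 0.040 for II, 0.072 for III, 0.031 for IV and 0.11 for V, so that the medians of II, III and IV differed from it by less than 0.10. The offset was not the same on the OGFRL1 arrays. The spike-ins were -0.49 on array 1 and -0.21 on array 2 relative to the EGFP mean, and the members lay 0.26 and 0.087 above them. When every array was scaled to its spike-ins, 69 of the 85 genes had a positive and 16 a negative difference, where 86.6% of all genes were positive. The median of the 85 was then 0.18, beside 0.38 over all genes. The scaling adds 1 shared offset per array to every gene, so the order of members, all genes and spike-ins cannot change under it, and its calls do not vary independently of each other. In that fit 1 member passed, Atp5md, where 12.7% of all genes passed. Its EGFP signals as deposited were far apart, at 949 and 2758, and its SE was 0.27 in that fit but 0.44 in the reported one. Without EGFP array 1 the reported fit gave Atp5md a difference of -0.057. The spike-ins are added after labelling and carry no information on the amount of liver RNA per cell. The 27 probe sets for poly(A) controls, which would be added to total RNA, had signals of at most 13.3.

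**Figure D2:**
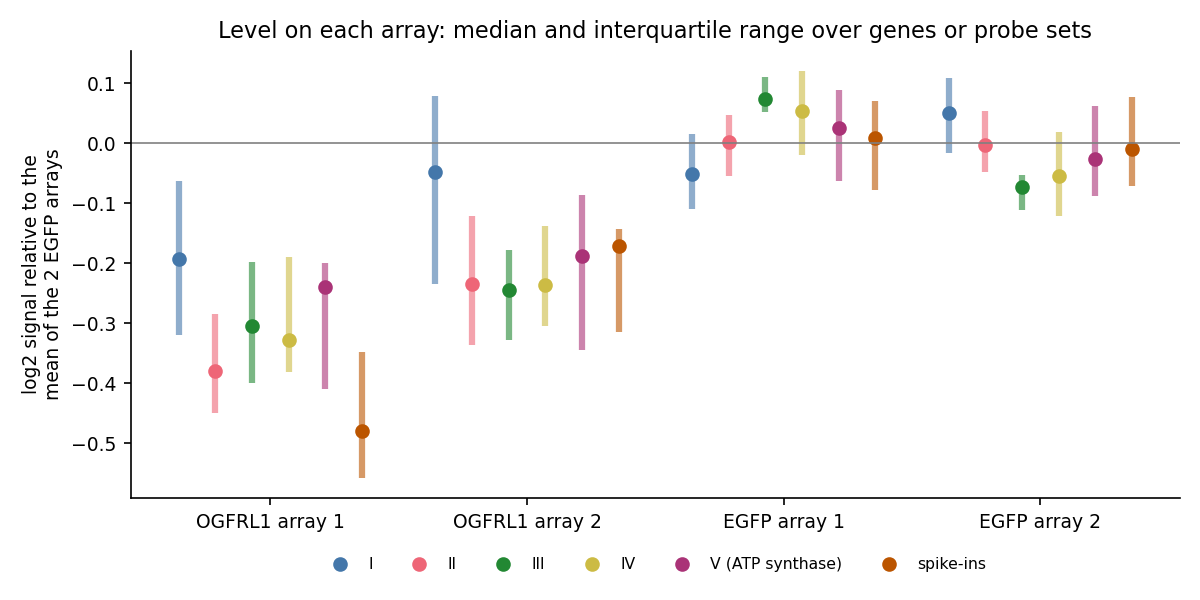
Points are medians and bars interquartile ranges, over the tested genes of each complex or over the 18 spike-in probe sets, of the log2 signal relative to the mean of the EGFP arrays (vertical axis), for each of the 4 arrays (horizontal axis). Every median on the OGFRL1 arrays is below 0, and the spike-ins are lowest on OGFRL1 array 1.

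Complex I is the largest complex. Of its 33 tested subunits 23 were lower and 10 higher (median -0.098, range -0.47 to 0.25). Both OGFRL1 arrays lay below both EGFP arrays for 15, where 20.5% of all genes did so. They lay above for 1, where 27.0% of all genes did so, and the groups overlapped for 17. Its median was the highest of the 5 complexes, but this rested on EGFP array 1, without which it was -0.23, beside -0.22 for complex IV. With the mean over probe sets it was -0.14, beside -0.16 for complex V. The higher subunits Ndufs8, Ndufa7, Ndufa12, Ndufs4, Ndufab1 and Ndufb6 also had lower probe sets, and the lower Ndufa3 and Ndufv2 had a higher one. Ndufa13, a supernumerary subunit also known as the cell death regulator GRIM-19, had signals of 2441 and 2437 on the OGFRL1 arrays and 3791 and 3013 on the EGFP arrays (log2 difference -0.47 ± 0.16, limma adjusted p = 0.23). Ndufb11, an X-linked subunit of the membrane arm, had 2638 and 2931 in OGFRL1 livers and 3734 and 3489 in EGFP livers (-0.38 ± 0.14, adjusted p = 0.266). Ndufb7, of the same arm, had 1548 and 1795 in OGFRL1 livers and 2350.4 and 2064 in EGFP livers (-0.40 ± 0.15). In all 3 the groups did not overlap, and EGFP array 1 was the highest. Without that array the difference of Ndufa13 was -0.30. Ndufa1, an X-linked subunit whose probe set was the brightest of complex I, had 3868 and 3789 in OGFRL1 livers and 4459.8 and 4544 in EGFP livers (-0.23 ± 0.13), again without overlap. Ndufs5, a small subunit on the side of the intermembrane space, showed the smallest difference, with 1219.8 and 1222 in OGFRL1 livers lying between the EGFP values of 1045 and 1421 (0.0025 ± 0.17).

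Other supernumerary subunits without overlap were Ndufa9 (-0.29 ± 0.13), Ndufb9 (-0.29 ± 0.13), Ndufb8 (-0.26 ± 0.13), Ndufa10 (-0.22 ± 0.14), Ndufb5 (-0.20 ± 0.14) and Ndufb3 (-0.15 ± 0.14), and Ndufc1 at -0.060 ± 0.13. All of these lay closer to 0 than Ndufa13. Without EGFP array 2 the difference of Ndufa10 was -0.13. Among the supernumerary subunits whose groups overlapped, Ndufb6 had 2289 and 2087 in OGFRL1 livers and 1567 and 2355 in EGFP livers (0.19 ± 0.21). There EGFP array 1 was low, and EGFP array 2 was above both OGFRL1 arrays. For Ndufb10, with 1041 and 1163 in OGFRL1 livers and 918 and 1287 in EGFP livers (0.017 ± 0.19), the OGFRL1 values lay between the EGFP values. EGFP array 1 was the lowest of the 4 arrays for both.

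The core subunits of complex I, which hold the flavin and the iron-sulfur clusters or the quinone site, had a median of -0.17 (6 tested), and the supernumerary subunits one of -0.094 (27 tested). Ndufs3, a core subunit, had 1530.1 and 1677 in OGFRL1 livers and 1926 and 2023 in EGFP livers (-0.30 ± 0.13), with no overlap. Ndufv1, the subunit that binds NADH, had -0.16 ± 0.15 with overlapping groups. Its other probe sets had -0.29 ± 0.13 and -0.36 ± 0.15, without overlap. Ndufs1, the largest iron-sulfur subunit, had -0.20 ± 0.14. EGFP array 2 was the highest array for all 6 core subunits. Without it Ndufs3 had -0.27, Ndufs1 -0.11, and Ndufv1 -0.0082 by its brightest probe set. Ndufv3, an accessory subunit beside the flavin, had 2270.3 and 2324 in OGFRL1 livers and 2878 and 2870.0 in EGFP livers (-0.32 ± 0.13, adjusted p = 0.3), and the EGFP arrays were nearly equal. The subunit with the largest positive difference was Ndufa2, which had 2214 and 2495 in OGFRL1 livers and 2030.5 and 1927 in EGFP livers (0.25 ± 0.14, adjusted p = 0.45). It was the 1 subunit of complex I with both OGFRL1 arrays above both EGFP arrays. Ndufab1, the mitochondrial acyl carrier protein, which also serves lipoic acid and iron-sulfur cluster synthesis, had 0.074 ± 0.14.

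Assembly factors of complex I, which help to build it and are not part of the finished enzyme, went in both directions. Of the 8 tested, 5 were lower and 3 higher (median -0.074). Ndufaf1, a chaperone of the early membrane arm, had 384 and 334 in OGFRL1 livers and 458 and 520.4 in EGFP livers (-0.44 ± 0.15, limma adjusted p = 0.235), with no overlap. Ndufaf5, an enzyme that modifies a core subunit, had 86.9 and 78.7 in OGFRL1 livers and 61.5 and 71.5 in EGFP livers (0.30 ± 0.19), also with no overlap but in the other direction. Ndufaf2, a late assembly factor, had 141 and 172 in OGFRL1 livers and 105 and 153 in EGFP livers (0.29 ± 0.22), and here the groups overlapped. Without EGFP array 1 the difference of Ndufaf2 was 0.028 and that of Ndufaf5 0.20. Ndufaf4 had -0.13 ± 0.15 and Ndufaf8 the smallest difference, -0.016 ± 0.15.

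All 4 subunits of complex II had both OGFRL1 arrays below both EGFP arrays (median -0.31), where 20.5% of all genes did so. Sdhb, which carries the iron-sulfur clusters, had signals of 2173 and 2425 in OGFRL1 livers and 3174 and 3013 in EGFP livers (-0.43 ± 0.14, limma adjusted p = 0.211). Sdha, the flavoprotein that oxidises succinate, had 1452 and 1554 in OGFRL1 livers and 1802 and 2127 in EGFP livers (-0.38 ± 0.14, adjusted p = 0.279). The difference of Sdha was -0.50 without EGFP array 1 and -0.26 without EGFP array 2. The membrane anchors had smaller differences, which for Sdhc came from 637 and 728 in OGFRL1 livers and 782 and 819 in EGFP livers (-0.23 ± 0.14). For Sdhd the values were 1445 and 1524 in OGFRL1 livers and 1694 and 1524 in EGFP livers (-0.11 ± 0.13), with OGFRL1 array 2 and EGFP array 2 nearly equal.

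All 8 subunits of complex III were lower in OGFRL1 livers (median -0.27, range -0.53 to -0.082), 6 of them without overlap. Both OGFRL1 arrays lay below both EGFP arrays for 20.5% of all genes. Uqcrc1, a core subunit related to mitochondrial processing peptidases, had 1759.6 and 2089.9 in OGFRL1 livers and 2991 and 2573 in EGFP livers (-0.53 ± 0.16, limma adjusted p = 0.189). Uqcrfs1, the Rieske iron-sulfur protein, had 1817 and 1911 in OGFRL1 livers and 2475 and 2301 in EGFP livers (-0.36 ± 0.13, adjusted p = 0.269). Uqcr11, a small subunit, had 1991 and 2087 in OGFRL1 livers and 2894 and 2459.7 in EGFP livers (-0.39 ± 0.14). These 3 showed the same picture, with EGFP array 1 highest and OGFRL1 array 1 lowest. The brightest probe set, that of Uqcrb, which lies at the quinone site, had 8206 and 8860.0 in OGFRL1 livers and 11307 and 10215 in EGFP livers (-0.33 ± 0.15), without overlap. Uqcrh, the hinge protein of cytochrome c1, showed the smallest difference, with 2159 and 2517 in OGFRL1 livers and overlapping values of 2596 and 2345 in EGFP livers (-0.082 ± 0.15). The groups also overlapped for Uqcr10 (-0.15 ± 0.16), a small subunit beside cytochrome c1. Uqcrc2, the other core protein, had 2008 and 2006 in OGFRL1 livers and 2294 and 2321 in EGFP livers (-0.20 ± 0.13), and Uqcrq, a small subunit, had -0.22 ± 0.13, both without overlap.

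Of the 11 subunits of complex IV tested, 10 had both OGFRL1 arrays below both EGFP arrays (median -0.32), where 20.5% of all genes did so. The median signal of the complex was 4466. Among other genes with a mean signal of 4000 and over, the median difference was -0.40 and 90.2% were lower. Cox6a1, the common form of subunit 6A and the brightest of the complex, had 5961 and 6809 in OGFRL1 livers and 10947 and 7823 in EGFP livers (-0.54 ± 0.20, limma adjusted p = 0.27). Its EGFP array 1 stood far above the other 3, and without that array the difference was -0.30. Cox5b, which binds zinc, had 4079 and 4597 in OGFRL1 livers and 5476 and 5351 in EGFP livers (-0.32 ± 0.14, adjusted p = 0.344), and Cox6c had 3292 and 3346 in OGFRL1 livers and 4379.6 and 3899 in EGFP livers (-0.32 ± 0.14). For both the groups did not overlap. Cox4i1, the common form of the largest nuclear subunit, had 3855 and 4016 in OGFRL1 livers and 5540.5 and 4453 in EGFP livers (-0.34 ± 0.16). Ndufa4 had 3199 and 3525 in OGFRL1 livers and 4442 and 3985 in EGFP livers (-0.33 ± 0.14). Cox8a, the smallest subunit, had 1661 and 1699 in OGFRL1 livers and 2513 and 1826 in EGFP livers (-0.35 ± 0.18). In all 3, and in Cox7a2 (-0.25 ± 0.14), EGFP array 1 was the highest, while in Cox5a (-0.17 ± 0.14) and Cox6b1 (-0.16 ± 0.14) EGFP array 2 was. Without EGFP array 1 the difference was -0.12 for Cox8a and -0.18 for Cox4i1. Cox7a2l, known as a factor of supercomplex formation, had the smallest difference, from 937 and 958 in OGFRL1 livers and 1064 and 999.7 in EGFP livers (-0.12 ± 0.13). The exception in direction was Cox7c (0.62 ± 0.32), which was tested through a dim probe set with 22.8 and 23.1 in OGFRL1 livers and 10.9 and 17.1 in EGFP livers, and whose other probe set had 6.71 and 6.15 in OGFRL1 livers and 8.46 and 8.76 in EGFP livers, the opposite order. Without EGFP array 1 the difference of Cox7c was 0.36.

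The isoforms used in other tissues had low signals. Of the 8, 4 reached the signal needed for the test. Cox6a2 (the heart and muscle form) had 17.8 and 19.4 in OGFRL1 livers and 16.2 and 16.9 in EGFP livers (0.14 ± 0.29). Cox7a1 (also of heart and muscle) had 31.2 and 25.1 in OGFRL1 livers and 17.3 and 24.2 in EGFP livers (0.39 ± 0.29). Cox6b2 (the testis form) had 29.5 and 22.8 in OGFRL1 livers and 22.2 and 21.6 in EGFP livers (0.21 ± 0.27). In these 3 both OGFRL1 arrays were above both EGFP arrays, where 27.0% of all genes were so. Their signals were not far above the 11.6 needed for the test, and other genes with mean signals under 100 had a median difference of 0.089. Without EGFP array 1 the difference of Cox7a1 was 0.19. None of the 3 passed the test (limma adjusted p = 0.865, 0.59 and 0.768). Cox8c, a testis form, went the other way, with 58.2 and 46.8 in OGFRL1 livers and 104 and 82.7 in EGFP livers (-0.79 ± 0.21, adjusted p = 0.164), the lowest log2 difference of the 85 genes. Of the markers beside them, 5 of 16 muscle and heart genes reached the test, with summed signals over the list of 113 and 116 on the OGFRL1 arrays and 150.3 and 125 on the EGFP arrays. For testis, 2 of 8 genes did, with sums of 59.4 and 63.6 on the OGFRL1 arrays and 78.5 and 126 on the EGFP arrays, and the highest was Prm1 at 24.7 and 27.5 on the OGFRL1 arrays and 30.1 and 83.5 on the EGFP arrays. Their part in the isoforms' signals was not tested. Cox4i2, Cox7b2, Cox8b and Ndufa4l2, and 1 subunit of complex I, Ndufb4, had probe sets with a mean under 11.6 and were not tested. Ndufa4l2, a paralog of Ndufa4, had 4.24 and 2.22 in OGFRL1 livers and 9.63 and 8.29 in EGFP livers, and Cox4i2 had 4.92 and 6.28 in OGFRL1 livers and 8.98 and 1.17 in EGFP livers. Cox7b2 had 0.518 and 1.90 in OGFRL1 livers and 5.85 and 5.12 in EGFP livers, Cox8b had 4.44 and 0.708 in OGFRL1 livers and 1.60 and 6.82 in EGFP livers, and Ndufb4 had 4.93 and 4.89 in OGFRL1 livers and 0.450 and 7.34 in EGFP livers. At such signals a MAS5 value may be background.

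Of the 17 subunits of the ATP synthase, 16 were lower in OGFRL1 livers and 14 of these without overlap (median -0.24). Both OGFRL1 arrays lay below both EGFP arrays for 20.5% of all genes. Atp5a1, the alpha subunit of the catalytic F1 head, had 2728 and 2786 in OGFRL1 livers and 4280.2 and 3671 in EGFP livers (-0.52 ± 0.14, limma adjusted p = 0.164), the lowest adjusted p of the 85 genes. Atp5b, the catalytic beta subunit, had 4720.1 and 4453 in OGFRL1 livers and 5724 and 5588 in EGFP livers (-0.30 ± 0.13). Of the central stalk, Atp5c1 had -0.35 ± 0.14, Atp5d -0.45 ± 0.17 and Atp5e -0.20 ± 0.13, and without EGFP array 1 that of Atp5d was -0.24. All 5 subunits of the head and its stalk had both OGFRL1 arrays below both EGFP arrays, and their median was -0.35. The c ring that turns in the membrane is made from a protein encoded by 3 genes. Atp5g3, the brightest probe set of the complex, had 5143 and 5447 in OGFRL1 livers and 7616 and 6373 in EGFP livers (-0.40 ± 0.15, adjusted p = 0.287). Atp5g1 had 2364 and 2597 in OGFRL1 livers and 2734 and 2726 in EGFP livers (-0.14 ± 0.13), also without overlap. Atp5g2 had the smallest difference of the complex, with 1434 and 1530.0 in OGFRL1 livers and overlapping values of 1542 and 1443 in EGFP livers (-0.010 ± 0.13). The difference between the 3 genes was not tested.

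The peripheral stalk (Atp5h, Atp5j, Atp5o and Atp5pb) had a median of -0.18, from -0.26 ± 0.13 for Atp5j to -0.015 ± 0.18 for Atp5h, for which the OGFRL1 values of 3784 and 3792 lay between the EGFP values of 3294 and 4449. Among the small membrane subunits, Atp5k, the e subunit, had 1842 and 1957 in OGFRL1 livers and 2725 and 2410.3 in EGFP livers (-0.43 ± 0.14, limma adjusted p = 0.212). Atp5mpl had -0.24 ± 0.15 and Atp5l -0.13 ± 0.13. The exception was Atp5md, a small subunit at the interface of synthase dimers, with 2605 and 2697 in OGFRL1 livers and 949 and 2758 in EGFP livers (0.71 ± 0.44, adjusted p = 0.513). EGFP array 1 stood alone at the low value, while EGFP array 2 was above both OGFRL1 arrays. Without EGFP array 1 the difference was -0.057, and without EGFP array 2 it was 1.48 (limma adjusted p = 0.00251).

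The 12 members that passed without EGFP array 2 came from every complex but II. Those lower were Ndufa13, Uqcrc1, Uqcr11, Cox6a1, Cox8a, Cox4i1, Atp5a1, Atp5d, Atp5g3 and Atp5k, with log2 differences of -0.78 to -0.49. Those higher were Atp5md and Ndufs8, at 1.48 and 0.73. The adjusted p of the 12 lay between 0.00251 and 0.0464, and in that fit the lone EGFP array is assumed to vary like the OGFRL1 group.

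The promoters of Uqcrc1, Atp5k and Cox6a1 are shown because these 3 members had the largest absolute moderated t among those whose window held a searched motif and whose sequence can be printed here. Windows run from 250 bases before to 50 bases after the start of the gene (RefSeq, GRCm38.p6), on the strand of the gene, and were found for 74 of the 90 genes. The motifs, searched on both strands, were GCGCANGCG for NRF1, TCAAGGTCA for ERR alpha, CCGGAAGT for the ETS factor GABPA and AAGATGGCG for YY1, factors known as regulators of nuclear genes of the respiratory chain. Capitals mark matches, all of them to the NRF1 motif. The motif overlaps its own reverse complement, so that GCGCATGCGC counts on both strands. The windows lie at chr9:108936398-108936697 (plus strand), chr5:108434350-108434649 (minus strand) and chr5:115348909-115349208 (minus strand).
Uqcrc1: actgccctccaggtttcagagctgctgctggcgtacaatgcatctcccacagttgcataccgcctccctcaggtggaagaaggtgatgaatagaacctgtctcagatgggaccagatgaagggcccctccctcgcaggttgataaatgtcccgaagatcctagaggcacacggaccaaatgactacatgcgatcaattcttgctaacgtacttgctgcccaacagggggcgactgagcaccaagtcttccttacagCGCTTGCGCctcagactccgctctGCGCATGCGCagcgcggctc
Atp5k: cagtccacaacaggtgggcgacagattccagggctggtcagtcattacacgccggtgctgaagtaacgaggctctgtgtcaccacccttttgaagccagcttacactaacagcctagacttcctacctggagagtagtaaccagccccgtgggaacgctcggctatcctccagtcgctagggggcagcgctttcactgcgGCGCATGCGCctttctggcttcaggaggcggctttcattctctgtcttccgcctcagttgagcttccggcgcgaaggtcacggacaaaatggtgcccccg
Cox6a1: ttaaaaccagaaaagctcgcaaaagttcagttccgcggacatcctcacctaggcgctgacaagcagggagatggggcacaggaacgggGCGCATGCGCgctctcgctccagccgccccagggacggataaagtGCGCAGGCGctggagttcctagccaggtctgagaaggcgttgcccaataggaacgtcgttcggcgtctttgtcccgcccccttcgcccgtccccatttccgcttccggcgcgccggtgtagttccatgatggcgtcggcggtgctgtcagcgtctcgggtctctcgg

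The NRF1 motif was in a window of 20 of the 74 genes (27.0%), where 7.03% of all 27025 genes with a window had it. In this paragraph all genes means these 27025, tested on the arrays or not, so the shares are not matched for signal. The YY1 motif was in 7 (9.46%, against 1.64% of all genes), the GABPA motif in 5 (6.76%, against 4.31%) and the ERR alpha motif in 2 (2.70%, against 0.466%). In all, 30 of the 74 genes (40.5%) held at least 1 of the motifs, against 12.3% of all genes. A match is a run of letters and not a measured site.

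The differences of the other genes were lower where their probe sets were brighter, and those of the members are set beside them. Among genes with a mean signal of 4000 and over, the 13 members were all lower (median -0.30), and the 204 other genes had a median of -0.40 with 90.2% lower. From 2000 to 4000 the median was -0.22 for 29 members and -0.20 for 270 other genes, of which 72.2% were lower. From 1000 to 2000 it was -0.16 for 23 members and -0.062 for 573 others, and from 500 to 1000 it was -0.13 for 8 members and -0.018 for 932 others. From 100 to 500 the 5 members had a median of -0.13 and the 4258 others one of 0.053, and below 100 the 7 members had 0.21 and the 5620 others 0.089. The members' medians thus differed little between 100 and 2000, where they were -0.13 to -0.16. Among the spike-ins, BioC, at mean signals of 377 to 567, had a mean of -0.38, BioD, at 944 to 2927, one of -0.24, and Cre, at 5600.1 to 10676, one of -0.43. The median probe set signal was 1857 for complex I, 1640.3 for II, 2356 for III, 4466 for IV and 2748 for V. The part of brightness in the differences between complexes was not tested.

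**Figure D3:**
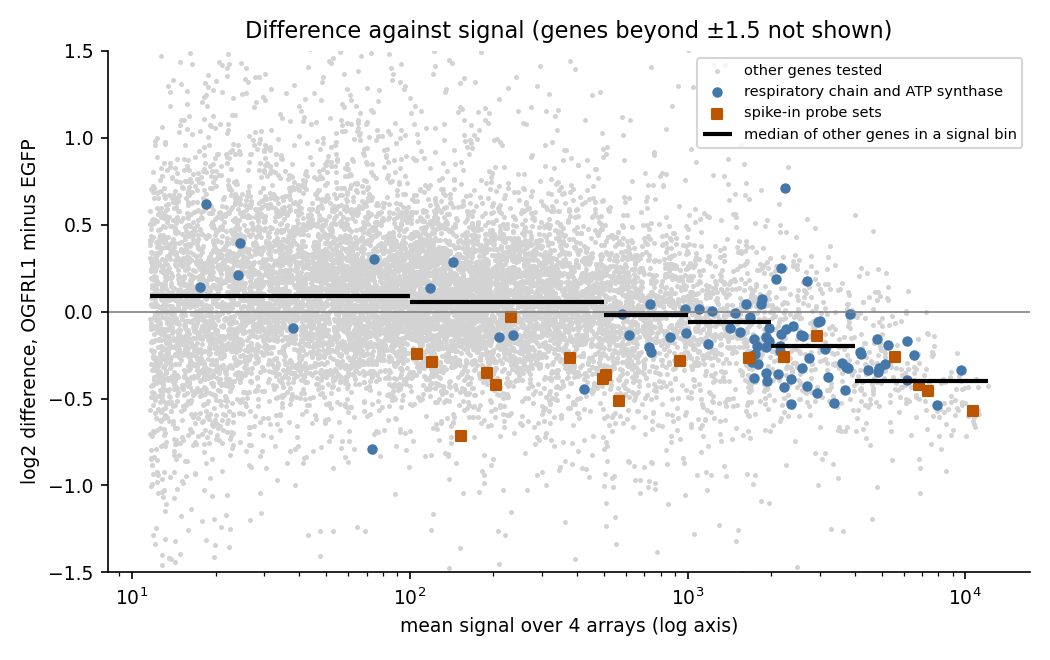
The log2 difference (OGFRL1 minus EGFP, vertical axis) is plotted against the mean signal over the 4 arrays (horizontal axis, log scale) for members (blue), other genes tested (grey) and spike-in probe sets (squares). Black bars are medians of the other genes in 6 signal bins, which fall from 0.089 below a signal of 100 to -0.40 at 4000 and over.

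Genes with several probe sets often had discordant values. Of the 179 probe sets, 156 reached the signal filter, of which 122 were lower and 34 higher in OGFRL1 livers, with a median of -0.19 and 0 past a limma adjusted p of 0.05 in a fit of all 20238 such probe sets, where 0.336% passed. The probe sets not used to represent a gene (71) had a median of -0.19, with 55 lower. For 16 of the 45 members with more than 1 such probe set (35.6%) their differences had both signs, as they did for 44.9% of all such genes. Ndufs8, an iron-sulfur subunit of complex I, was the one with the most probe sets. Its brightest probe set had 2768 and 2757 in OGFRL1 livers and 1662 and 3594 in EGFP livers (0.18 ± 0.33), and the next had 2153 and 2226 in OGFRL1 livers and 3169 and 2524 in EGFP livers (-0.37 ± 0.16). EGFP array 1 was the lowest array on the first and the highest on the second, and all 5 other probe sets of Ndufs8 had negative differences. Uqcrb had -0.33 ± 0.15 by its brightest probe set, and a second with 1915 and 1806 in OGFRL1 livers and 1299 and 1896 in EGFP livers had 0.24 ± 0.20. Uqcr10 had the widest range, from -0.24 to 0.61. The highest value came from a dim probe set with 110.2 and 103 in OGFRL1 livers and 63.8 and 73.8 in EGFP livers. A dimmer probe set of Cox6c had 2818 and 2163 in OGFRL1 livers and 1978 and 2783 in EGFP livers, with OGFRL1 array 1 and EGFP array 2 high. One of Atp5o had 1052 and 933 in OGFRL1 livers and 682 and 1090.1 in EGFP livers, with EGFP array 1 alone at the low value. One of Sdhd had 427 and 272 in OGFRL1 livers and 208 and 405 in EGFP livers, where both groups spread widely and overlapped. Other genes with both signs were Ndufa3, Ndufa7, Ndufa12, Ndufab1, Ndufb6, Ndufs4, Ndufv2, Uqcrc2, Cox7a2 and Atp5j2. The probe sets that agreed most closely were the pairs of Ndufb5 and Ndufb9, which spanned 0.015 and 0.021. The 3 probe sets of Ndufb11 ran from -0.45 to -0.37 and the 3 of Atp5k from -0.43 to -0.32. Whether the order of the EGFP arrays was the same on all of a gene's probe sets was counted too, and it differed for 25 of the 45 members (55.6%), against 52.7% of all such genes. Signals of x_at and s_at probe sets can include related transcripts, such as pseudogenes, of which this family has many.

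**Figure D4:**
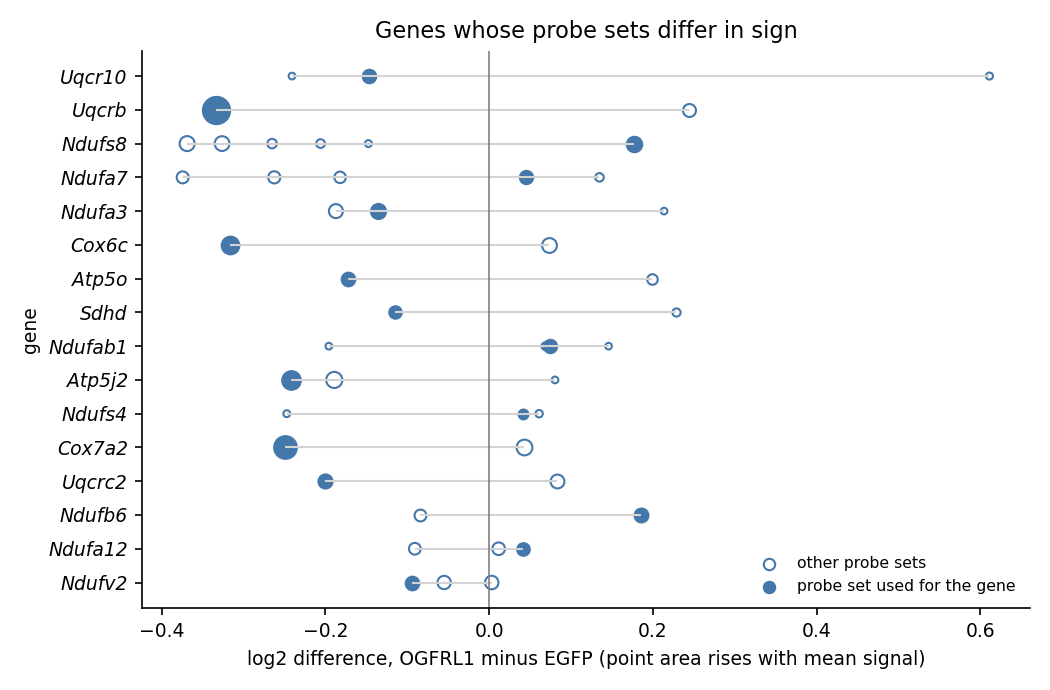
For each of the 16 genes on the vertical axis whose probe sets passing the filter differ in sign, the log2 difference (OGFRL1 minus EGFP, horizontal axis) of every probe set is shown, filled where it represents the gene and open otherwise, with area rising with mean signal. Uqcr10, Uqcrb and Ndufs8 span the widest ranges.

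Other mitochondrial genes were read from the same fit, beside the 44.4% of all genes that were lower and the 0.511% that passed. Of the tricarboxylic acid cycle, which feeds electrons to the chain, 15 of 17 tested genes were lower (median -0.14) and 0 passed the limma threshold. Suclg2, the GTP-forming subunit of succinyl-CoA ligase, had 1964 and 1867 in OGFRL1 livers and 2564 and 2789.9 in EGFP livers (-0.48 ± 0.13, adjusted p = 0.166), without overlap. Genes of mitochondrial protein import went both ways, with 11 higher and 10 lower of 21 tested (median 0.014), 0 past the threshold, and Hspd1, the chaperonin of the matrix, at -0.33 ± 0.14 beside the receptor Tomm20 at 0.25 ± 0.13. Further assembly factors, of complexes II to V and of complex I, had a median of -0.059 over 35 tested (14 higher, 21 lower, 0 past the threshold). Surf1, an assembly factor of complex IV, had 365 and 407 in OGFRL1 livers and 561 and 490.1 in EGFP livers (-0.44 ± 0.15). Carriers and links to the chain outside the symbol rule, 12 tested, had a median of -0.11 (5 higher, 7 lower, 0 past the threshold). Cyc1, the cytochrome c1 of complex III, had 2494 and 2610.3 in OGFRL1 livers and 3414 and 3022 in EGFP livers (-0.33 ± 0.14). Against the common direction, Atpif1, the inhibitor of the ATP synthase, had 856 and 720.0 in OGFRL1 livers and 399 and 540.0 in EGFP livers (0.75 ± 0.19, adjusted p = 0.139). The same held for Slc25a4, an ADP/ATP carrier most abundant in heart and muscle, with 274 and 289 in OGFRL1 livers and 192 and 146 in EGFP livers (0.74 ± 0.18, adjusted p = 0.129). Both had no overlap between the groups. Regulators of respiratory genes were split, with 10 higher and 13 lower of 23 tested (median -0.046) and 0 past the threshold. Tfam, the packaging and transcription factor of mitochondrial DNA, had 0.35 ± 0.16, Polg, its polymerase, -0.33 ± 0.15, and Myc, a growth regulator that also acts on mitochondrial genes, 1.04 ± 0.26 (adjusted p = 0.145).

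Markers of the cells in the tissue were read against the same shares of all genes, of which 0.36% were called higher and 0.151% lower. The hepatocyte markers bore out the label liver, since none was near 0. All 11 tested were lower (median -0.51), 0 of them past the threshold, with summed signals of 68372 and 73573 on the OGFRL1 arrays and 115331 and 89436 on the EGFP arrays. Among them Cyp2e1, a cytochrome P450 of the zone around the central vein, had -0.79 ± 0.15, and Hnf4a, the hepatocyte transcription factor, -0.55 ± 0.15. Most of these markers had mean signals of 4000 and over. In that range the genes outside the respiratory chain had a median of -0.40, with 90.2% lower. The part of brightness in the markers' differences was not tested. Stellate cell markers were higher in 8 of 9 genes, 0 past the threshold, with sums of 3819 and 5335 on the OGFRL1 arrays and 2609.8 and 2753 on the EGFP arrays. Proliferation markers were higher in 7 of 7 genes, 4 of them past the threshold (Rrm2, Birc5, Mcm6 and Mcm5), with sums of 3591 and 4347 on the OGFRL1 arrays and 1477 and 1056 on the EGFP arrays. Macrophage markers were split 4 and 4 and their sums overlapped between the groups, at 6681 and 10968 on the OGFRL1 arrays and 12636 and 5310.1 on the EGFP arrays, endothelial markers were lower in 6 of 7 genes (sums of 1405 and 1487 on the OGFRL1 arrays and 1676 and 1561 on the EGFP arrays), and cholangiocyte markers were split 2 and 2 (sums of 102 and 109 on the OGFRL1 arrays and 108 and 108 on the EGFP arrays). The part of cell makeup in the members' differences was not tested.

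The size and the sign of the members' shift depended on how the arrays were scaled. With spike-in scaling the median of the 85 genes was 0.18, with 69 higher and 16 lower, where 86.6% of all genes were higher. The median of the 85 genes was -0.072 after quantile normalization, with 54 lower and 31 higher, where 49.6% of all genes were lower, and -0.12 with medians set equal. In the reported fit the median of the members lay between the spike-in mean and the median of all genes. Equal medians and spike-in scaling keep that order by construction, and the replicate blocks and the fit with no trend leave every difference as it was. The order was also found after quantile normalization, with the other pseudocount, filters and mean over probe sets, and without each array.

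**Figure D5:**
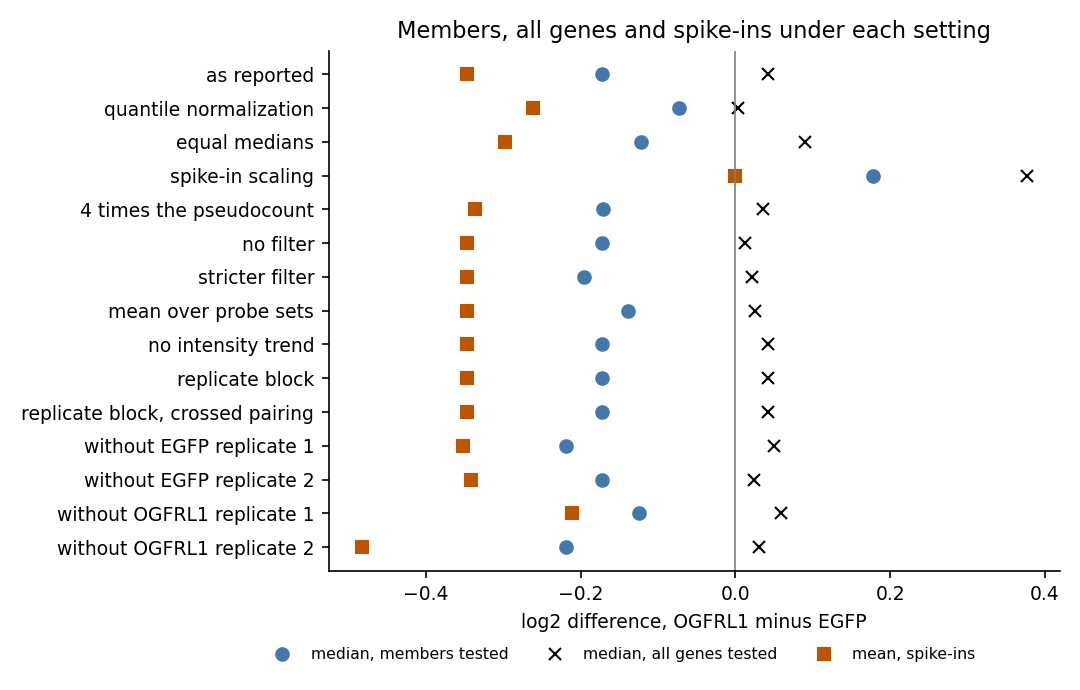
For the reported fit and each alternative, listed down the vertical axis, the horizontal axis gives the log2 difference (OGFRL1 minus EGFP) as the median of the tested members (circles), the median of all genes tested (crosses) and the mean of the 18 spike-in probe sets (squares). The members lie between the spike-ins and all genes, an order that equal medians and spike-in scaling could hardly alter. Scaling to the spike-ins moves the members above 0.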

How the data were processed

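Liver RNA (OGFRL1, n = 2 arrays, and EGFP, n = 2 arrays) was hybridised to single-colour Affymetrix mouse arrays, 100 ng of total RNA each, per the labels' protocols. The deposited values are intensity signals made with MAS5, per the submitters' processing notes, which scales each array as a whole. The MAS5 version, detection calls and a genome build are not given in the sources used here. Arrays have no read depth, and their number (4) limits the precision.

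Of the 45101 probe sets, 34945 had a single gene symbol in the platform annotation, 932 had several and 9160 had none, and 64 were controls. Signals were taken as log2(signal + 3.51), where 3.51 is the 25th percentile of all values. A gene was represented by its probe set of highest mean signal, kept where that mean was at least 11.6. Groups were compared with limma 3.58.1 (R 4.3.3), lmFit and eBayes with an intensity trend, 2-sided, with 2 residual and 4.48 prior degrees of freedom and Benjamini-Hochberg adjustment over all 11942 genes tested, at a threshold of 0.05. An exact permutation test of 2 against 2 arrays cannot go below 0.333. The fit was tested on simulated data. The members and lists were chosen with earlier results of these data known. Named in each complex were the 3 members with the largest absolute moderated t, the one with the smallest difference and the brightest, all tissue isoforms and all genes whose probe sets differed in sign. From each other list up to 3 genes by absolute moderated t, or any past the threshold, were eligible, and other members were named after their values were seen. Cyc1 was named outside this rule. Etfdh, of the same list, had a larger absolute moderated t and a log2 difference of -0.34 ± 0.13. Alternatives were quantile normalization, equal medians, scaling to the spike-ins, the pseudocount, the filter, the mean over probe sets, no trend, a replicate block and leaving out each array. Same-numbered arrays are not said to be pairs, and the correlation of their deviations from the group means was -0.28 over all genes. Promoter windows are RefSeq's for GRCm38.p6.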

Additional observations from a re-analysis of the deposited data

How the results depend on the processing

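The count of all genes past the limma threshold, 61 as reported, was 4 after quantile normalization, 1511 with spike-in scaling, 94 with 4 times the pseudocount, 2 with the stricter filter, 13 with the mean over probe sets, and 0 both with no filter and with no intensity trend, where 2179 and 1654 genes had an unadjusted p under 0.05. Leaving out 1 array gave 0 to 856 genes. It was 856 without EGFP array 2, 619 without EGFP array 1, 2 without OGFRL1 array 2 and 0 without OGFRL1 array 1, where 922 had an unadjusted p under 0.05. The count of members past the threshold, 0 as reported, was 1 with spike-in scaling (Atp5md) and 0 to 12 on leaving out 1 array, 12 without EGFP array 2. The numbers in the labels give no stated pairing. With the replicate number as a block 59 genes and 0 members passed, and with the crossed pairing, added after seeing the data, 934 genes and 4 members passed.

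The median of the members (-0.17) was -0.072 after quantile normalization, -0.12 with equal medians and 0.18 with spike-in scaling. Complex I, III, IV and V had medians of 0.23, 0.075, 0.034 and 0.11 with spike-in scaling, and complex II one of 0.042. After quantile normalization complex III had -0.072, IV -0.086 and V -0.072, and V had -0.19 with equal medians. With the mean over probe sets II had -0.23, IV -0.19 and V -0.16. Leaving out 1 array gave medians of -0.22 to -0.12 for all members, -0.23 to -0.048 for I, -0.38 to -0.23 for II, -0.37 to -0.23 for III, -0.34 to -0.22 for IV and -0.24 to -0.19 for V, and the members' median minus the spike-in mean was 0.087 to 0.26. The causes were not tested, other than that spike-in scaling applies 1 factor per array to all signals. The complex with the lowest median was IV as reported, at -0.32 beside -0.31 for II, but II after quantile normalization (-0.25), without EGFP array 1 (-0.33) and without OGFRL1 array 2 (-0.38), and III with the mean over probe sets (-0.25), without EGFP array 2 (-0.37) and without OGFRL1 array 1 (-0.25). With 2 arrays a group, signals under about the filter value and differences of the size of the SE could not be resolved.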
